A study of Mus musculus with 12 samples.

Results

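Dense clusters of NeuroD2 binding sites that hold few MyoD sites were examined in mouse P19 cells, an embryonal carcinoma line. Each autosome was divided into fixed windows of 100 kb, and a window was a member where 10 or more sites of the NeuroD2 list and 5 or fewer sites of the MyoD list started in it. The rule picked 94 of 15611 autosomal windows with a site of any list, 0.602%, out of 181 windows (1.16%) that met the NeuroD2 limit alone. These windows held 4095 of the 120275 sites in all 5 lists. By list they held 934 sites of WCS, 978 of WC, 315 of the chimera, 1624 of NeuroD2 and 244 of MyoD. The NeuroD2 and MyoD counts chose the windows and are given as a description. The WCS, WC and chimera lists, and the widths and values of all sites, were not used by the rule.

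The binding was mapped by ChIP-seq, in which chromatin bound by a protein is pulled down with an antibody and sequenced. Per the labels' protocol, P19 cells were infected with polybrene at 8 µg/ml, given fresh medium at 24 h, moved to a neuronal medium at 48 h and fixed in 1% formaldehyde for 11 min. The transduced groups are cells given MD(ND2bHLH)WCS mutant, called WCS, MD(ND2bHLH)WC mutant, called WC, MD(ND2bHLH) chimera, called the chimera, NeuroD2 or MyoD. The chimera is MyoD that carries the bHLH domain of NeuroD2, and the labels do not say what the letters of the mutants stand for. Each group has 2 libraries made with different antibodies, 6196 and 6975 against MyoD for 4 of the groups and 1165 and 1240 against NeuroD2 for NeuroD2. Both libraries share 1 list, which leaves no replicate error to compare with. The 95% intervals given for shares are exact binomial (Clopper-Pearson) intervals and cover counting error only. Untransduced P19 cells were also sampled and are not analysed here. Read depth is unknown.

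Basic helix-loop-helix (bHLH) factors bind DNA as dimers at short palindromic motifs called E-boxes. MyoD directs the skeletal muscle lineage and NeuroD2 the neuronal lineage, and the bHLH domain of each makes the contact with DNA. Some binding sites of such factors lie near genes that they regulate. Reads of repeated DNA and of recently duplicated genes can match several places in a genome, and mouse chromosomes carry tandem satellite repeats next to the end where the assembled sequence begins. No mm9 sequence or annotation was used here, so which of these windows hold repeats or duplicated genes was not tested and no gene was placed.

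The lists fall into 2 sets that bear on every comparison below. The lists of WCS, WC and NeuroD2 hold sites on chromosome X (362, 403 and 570), whereas those of the chimera and MyoD hold 0. In the member windows the narrowest sites had 73, 68 and 57 bp in WCS, WC and NeuroD2, and 227 and 200 bp in the chimera and MyoD. A difference in filters between these sets cannot be told apart from the protein. The antibodies divide the lists differently, since the NeuroD2 list was made with antibodies against NeuroD2 and every other list with antibodies against MyoD. Where NeuroD2 is compared with another list, antibody and protein differ together, and their separate parts were not tested. A site value here is the authors' own number for the site, on a scale that no label names. Values were thus compared only by percentile within a list.

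The member windows were spread over all 19 autosomes, and 4 chromosomes held most of their NeuroD2 sites. Chromosome 1 held 251 of these sites in 11 windows, chromosome 8 held 246 in 9, chromosome 4 held 241 in 13 and chromosome 5 held 220 in 8. Chromosomes 7, 13, 14, 16 and 19 held 1 window each. NeuroD2 counts ran from 10 to 74 per window with a median of 11, so most members lay close to the limit of the rule. Just inside that limit, the 36 windows with exactly 10 NeuroD2 sites had medians of 6 WCS, 6 WC, 3 chimera and 3 MyoD sites. Just outside it, 56 windows with 9 NeuroD2 sites and 5 or fewer MyoD sites had medians of 6, 7, 3 and 3. At the MyoD limit, 19 members had 5 MyoD sites and a median of 10 NeuroD2 sites, and 20 windows left out with 6 MyoD sites had a median of 11. In these medians the members hardly differ from the windows just past either limit. At 0 MyoD sites there were 18 windows.

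A small number of windows stood far above the rest. In 12 windows with 30 or more NeuroD2 sites lay 581 sites, 35.8% of all member NeuroD2 sites, in 17 windows with 15 to 29 lay 334, and in the other 65 windows, with 10 to 14 each, lay 709. These ranges were chosen after the counts were seen. No autosomal window outside the members had more than 19 NeuroD2 sites. The highest count of any window was 64 for WCS and 63 for WC, both in 1 member on chromosome 8, and 15 for both the chimera and MyoD, outside the members.

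**Figure D1:**
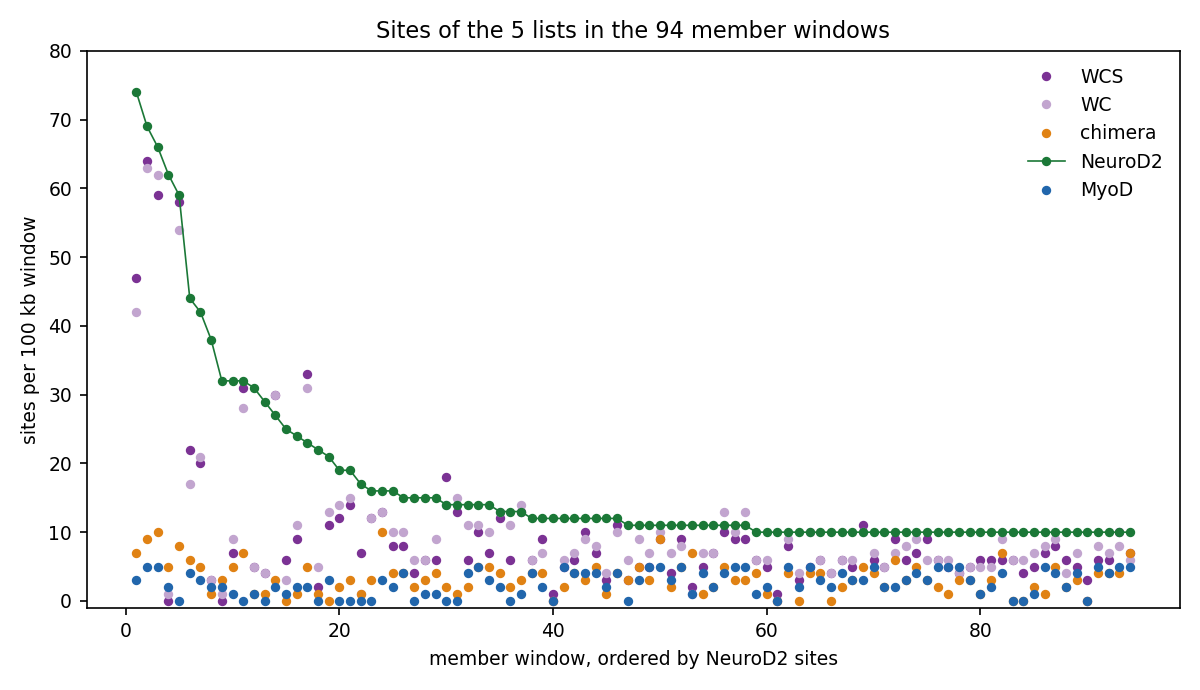
Sites per 100 kb window (y axis) in each of the 94 member windows, ordered by NeuroD2 count (x axis), with 1 point for each list and a line through the NeuroD2 counts. WCS and WC counts range from 0 to 64 in the windows with most NeuroD2 sites, while the chimera never exceeds 10 and MyoD never exceeds 5, the limit of the rule.

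The longest run of neighbouring members lay on chromosome 5 from 14800001 to 15300000 (mm9 coordinates, counted from 1), with 5 windows. It held 164 WCS, 160 WC, 35 chimera, 187 NeuroD2 and 6 MyoD sites. WCS overlapped 144 of the 187 NeuroD2 sites, 77.0% (70.3 to 82.8%), and WC also overlapped 144. The chimera overlapped 29, or 15.5% (10.6 to 21.5%), and MyoD 4. Over all autosomal NeuroD2 sites the shares were 53.3% for WCS, 58.6% for WC, 24.1% for the chimera and 20.8% for MyoD. By site count over the whole run, the mutants were about as dense as NeuroD2, and the chimera was sparse. In bases, WCS covered 115.5 kb, WC 115.3 kb, the chimera 16.7 kb, NeuroD2 102.9 kb and MyoD 2.08 kb. The sites of the mutants ranked high in their own lists, at a median percentile of 88.8 for WCS and 88.3 for WC, against 66.5 for NeuroD2. Chimera sites had a median percentile of 45.6 and MyoD sites of 26.3. Its window from 15100001 held 58 WCS, 54 WC, 8 chimera, 59 NeuroD2 and 0 MyoD sites, and that from 14900001 held 59, 62, 10, 66 and 5. The first window of the run, from 14800001, differed. It held 2 WCS, 1 WC, 7 chimera, 11 NeuroD2 and 1 MyoD sites, so the mutants were sparse there.

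Chromosome 8 held a run of 4 windows from 19700001 to 20100000 that was also dense in the mutants. It held 174 WCS, 166 WC, 24 chimera, 193 NeuroD2 and 12 MyoD sites. WCS overlapped 165 of the 193 NeuroD2 sites, 85.5% (79.7 to 90.1%), WC 173, or 89.6% (84.4 to 93.6%), and the chimera 20, or 10.4% (6.45 to 15.6%). The DNA that the mutants' sites cover bears on these shares. In this run it came to 131.3 kb for WCS and 138.5 kb for WC. The window with most NeuroD2 sites of all, from 19900001, held 47 WCS, 42 WC, 7 chimera, 74 NeuroD2 and 3 MyoD sites. Its lower mutant counts did not mean less covered DNA. WCS covered 60.97 kb of this window, WC 63.97 kb and NeuroD2 53.9 kb, since the mutants' sites were fewer and wider. The next window, from 20000001, held 30 WCS, 30 WC and 27 NeuroD2 sites, and both mutants overlapped all 27. In the window from 19800001 the mutants exceeded NeuroD2, with 33 WCS and 31 WC against 23 NeuroD2 sites. The run ended sharply, with 0 WCS, WC and NeuroD2 sites in the 100 kb after it.

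Together these 2 runs took up 9 of the 94 windows and 23.4% of the member NeuroD2 sites, 36.2% of the member WCS sites and 33.3% of the member WC sites. In them WCS overlapped 81.3% of NeuroD2 sites (77.0 to 85.1%), WC 83.4% (79.3 to 87.0%), the chimera 12.9% (9.69 to 16.7%) and MyoD 3.68% (2.03 to 6.10%). The background over all autosomes was 53.3%, 58.6%, 24.1% and 20.8%.

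**Figure D2:**
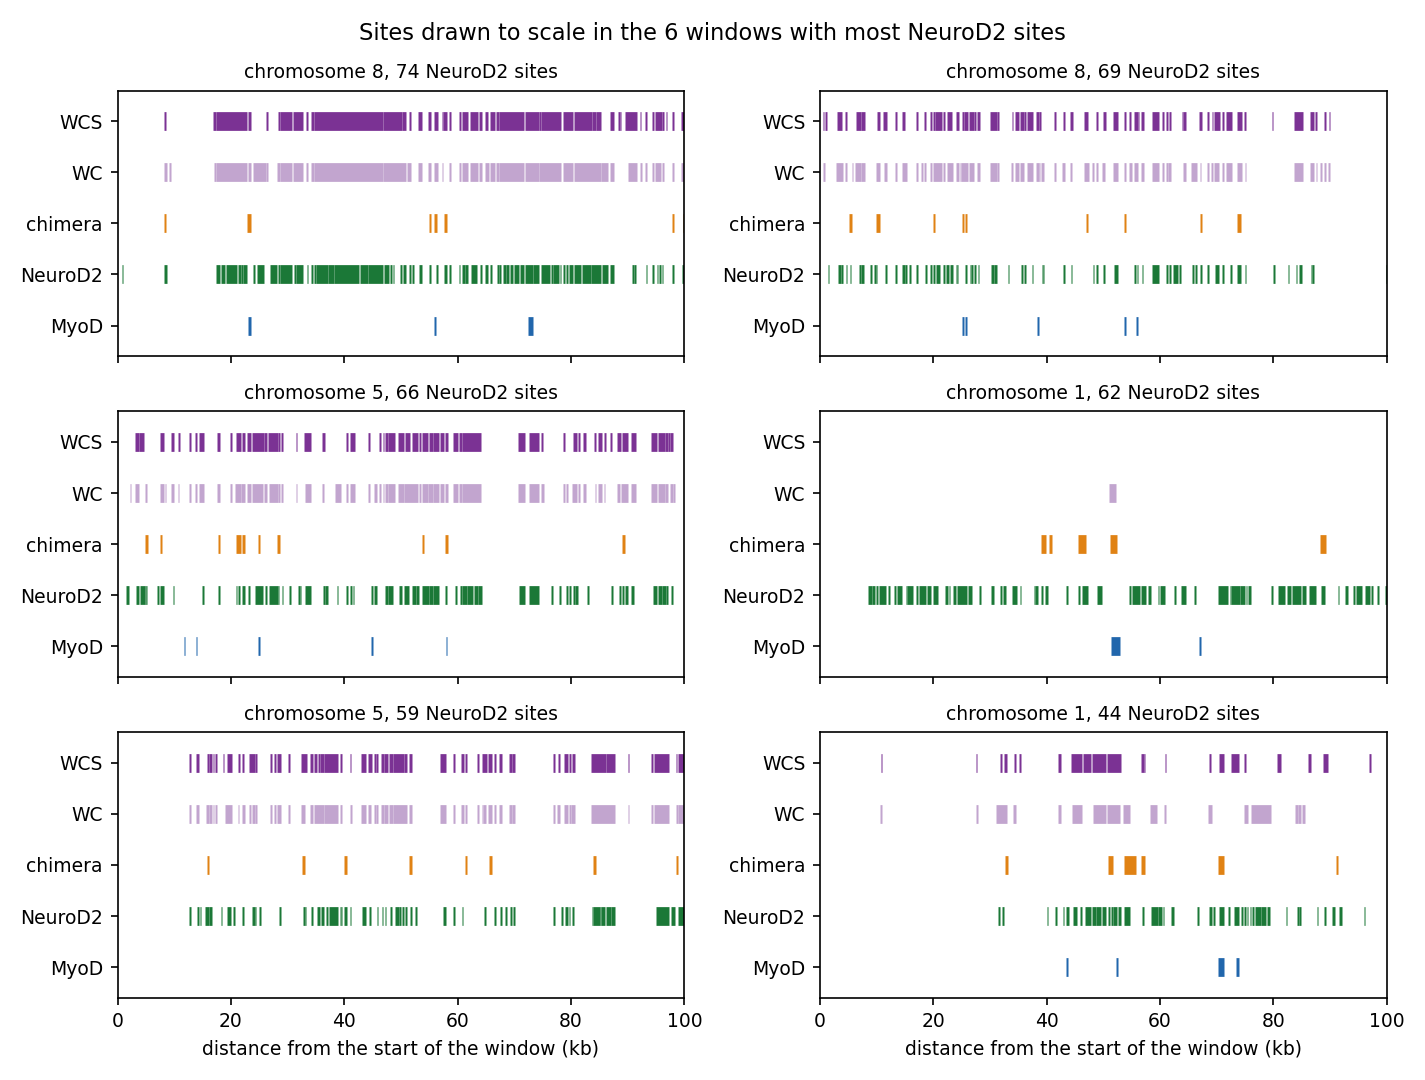
Sites of each list (rows) drawn to scale along the 6 windows with most NeuroD2 sites, from 74 to 44, against distance from the start of the window in kb. In the 4 windows of chromosomes 8 and 5 the WCS, WC and NeuroD2 rows are filled alike, whereas in the window of chromosome 1 with 62 NeuroD2 sites the WCS row is empty and the WC row holds 1 site.

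In the other 7 runs of 2 or 3 windows the mutants held a smaller share of the NeuroD2 sites than in the runs on chromosomes 5 and 8. Not all were low beside the 53.3% in WCS and 58.6% in WC over all autosomes. The run on chromosome 6 from 99800001 had 63.6% in WCS and 68.2% in WC. On chromosome 1, the run from 134400001 had 54.5% in each, and that from 87400001 had 43.3% and 53.3%. On chromosome 4 from 146700001 to 147000000, 3 windows held 24 WCS, 25 WC, 5 chimera, 78 NeuroD2 and 5 MyoD sites, and WCS overlapped 23.1% of NeuroD2 sites (14.3 to 34.0%) and WC 19.2% (11.2 to 29.7%). On the same chromosome from 145000001 to 145200000, 2 windows held 29 WCS, 32 WC, 6 chimera, 66 NeuroD2 and 5 MyoD sites, with 31.8% of NeuroD2 sites in WCS and 25.8% in WC. Another run on chromosome 4, from 145600001 to 145800000, held 11 WCS, 7 WC, 3 chimera, 32 NeuroD2 and 0 MyoD sites. NeuroD2 sites of these 3 runs ranked low in their list, at median percentiles of 27.7 from 146700001, 29.96 from 145000001 and 19.97 from 145600001. On chromosome 1 from 85200001 to 85400000, 40 WCS, 31 WC, 8 chimera, 58 NeuroD2 and 4 MyoD sites lay in 2 windows, and WCS overlapped 26 and WC 29 of the 58 NeuroD2 sites. Its window from 85300001 held 18 WCS, 14 WC, 2 chimera, 14 NeuroD2 and 0 MyoD sites, so that the mutants equalled or exceeded NeuroD2 there, and that from 85200001 held 22, 17, 6, 44 and 4. The densest windows of chromosome 4 differed in the same respect. That from 145100001 held 20 WCS, 21 WC, 5 chimera, 42 NeuroD2 and 3 MyoD sites, whereas that from 146800001 held 7, 9, 5, 32 and 1. In all, 9 runs of 2 or more windows took up 24 members and 42.4% of the member NeuroD2 sites, and 70 members stood alone.

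In a different set of windows NeuroD2 sites were dense and the mutants nearly absent. In 7 windows both WCS and WC overlapped 10% or less of the NeuroD2 sites, a limit set after the shares were seen. They held 12 WCS, 9 WC, 10 chimera, 193 NeuroD2 and 6 MyoD sites in all. Of the 193 NeuroD2 sites, 172 or 89.1% overlapped no other list, against a background of 32.7% over all autosomes. The choice of these windows largely fixed the share of 89.1%. None of the 87 windows with 10 or more NeuroD2 and 6 or more MyoD sites had so small a share in WC.

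The largest of these lay on chromosome 1 from 90100001 to 90200000. It held 0 WCS, 1 WC, 5 chimera, 62 NeuroD2 and 2 MyoD sites. The 62 NeuroD2 sites lay within 91.6 kb, covered 42.2 kb of it and had a median value of 6.26, percentile 19.4 of the list. The highest of them was 13.9. Of the 62 sites 57 overlapped no other list and 51 shared their exact value with another site of the window. The strongest sites of the other lists there lay in a gap between NeuroD2 sites: a WC site from 90151007 to 90152169, a chimera site from 90151167 to 90152337 and a MyoD site from 90151365 to 90152871 overlapped one another and no NeuroD2 site. Their values were 10.4, 12.8 and 46.2 in their own lists, which cannot be compared with one another.

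The window on chromosome 1 from 173400001 held 3 WCS, 3 WC, 1 chimera, 38 NeuroD2 and 2 MyoD sites. Here 34 of the 38 NeuroD2 sites overlapped no other list. The sites that other lists did hold included some of high value: the WC site from 173437353 to 173437905 had a value of 81.4 and the chimera site from 173437324 to 173437878 one of 60.7. On chromosome 3 the window from 25400001 held 0 WCS, 1 WC, 3 chimera, 32 NeuroD2 and 2 MyoD sites. Its 32 NeuroD2 sites lay within 39.97 kb and covered 31.1 kb of it, at a median width of 732 bp, and no site of WCS, WC or NeuroD2 started in either neighbouring window. NeuroD2 sites there filled most of their stretch, with values no higher than 11.0. The remaining 4 windows of this kind began at 3000001 on chromosomes 9 and 17, at 57100001 on chromosome 10 and at 22100001 on chromosome 8, with 29, 12, 10 and 10 NeuroD2 sites. A window just past this limit, on chromosome 16 from 3200001, held 5 WCS, 5 WC, 1 chimera, 31 NeuroD2 and 1 MyoD sites, and each mutant overlapped 12.9% of its NeuroD2 sites.

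Of the windows that begin at 3000001, near the lowest listed site positions, 3 were members. They were the windows of chromosome 9 with 29 NeuroD2 sites, chromosome 11 with 22 and chromosome 17 with 12. Each had 0 MyoD sites. In the same window of the other 16 autosomes NeuroD2 counts ran from 0 to 6, with a median of 0. The window of chromosome 9 held 4 WCS, 4 WC and 1 chimera sites, and its NeuroD2 sites spanned only 36.5 kb. It held 15 of the 16 NeuroD2 sites of infinite value among the members, and each mutant overlapped 2 of its 29 NeuroD2 sites. The window of chromosome 11 held 2 WCS, 5 WC and 1 chimera sites. NeuroD2 sites that start there covered 78.9 kb, of which 68.5 kb lay in 8 sites wider than 2000 bp, and the widest NeuroD2 site of all members, from 3084141 to 3100163, had 16023 bp. WCS sites covered 16.4 kb and WC sites 28.99 kb. NeuroD2 sites here ranked at a median percentile of 99.9 on chromosome 9, 91.6 on chromosome 11 and 41.5 on chromosome 17.

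**Figure D3:**
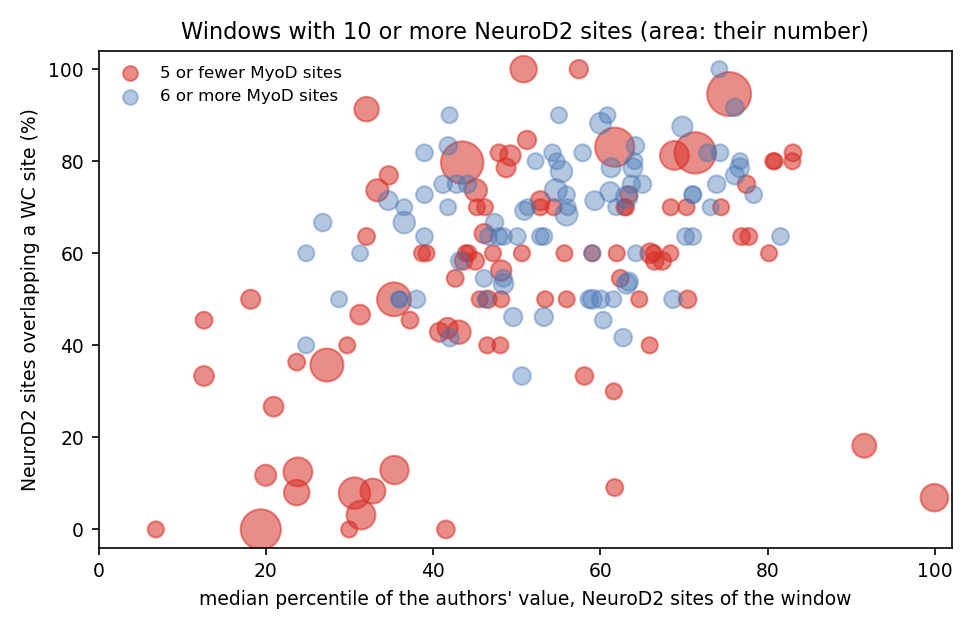
Share of a window's NeuroD2 sites that overlap a WC site (y axis, %) against the median percentile of those NeuroD2 sites by the authors' value (x axis), for windows with 10 or more NeuroD2 sites, with point area in proportion to their number. The member windows (5 or fewer MyoD sites) reach from 0 to 100% and include 10 windows at 10% or less, while the 87 windows with 6 or more MyoD sites lie between 33.3 and 100%.

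The 65 windows with 10 to 14 NeuroD2 sites were close to the whole genome in overlap shares and below it in ratios. They held 433 WCS, 479 WC, 201 chimera, 709 NeuroD2 and 195 MyoD sites. WCS overlapped 53.7% of their NeuroD2 sites (49.99 to 57.5%), WC 57.4% (53.7 to 61.1%) and the chimera 22.6% (19.5 to 25.8%), close to the 53.3%, 58.6% and 24.1% of all autosomal NeuroD2 sites. The 87 windows with 10 or more NeuroD2 and 6 or more MyoD sites, called MyoD-richer dense windows, had higher shares, of 62.2%, 67.5% and 42.1%. Per 100 NeuroD2 sites these 65 windows held 61.1 WCS, 67.6 WC and 28.3 chimera sites, against 72.4, 87.9 and 47.9 in all other autosomal windows. The rule chose them by the NeuroD2 count, which is the denominator of these ratios. Neighbouring NeuroD2 sites lay a median of 4488 bp apart in these windows, against 1176 bp in the 12 windows with 30 or more sites. In the 12 densest windows, 53.6% of neighbouring NeuroD2 sites were within 500 bp of each other, edge to edge, against 16.6% in the windows with 10 to 14 sites. In the 12 densest windows the chimera overlapped 10.3% of NeuroD2 sites (7.97 to 13.1%), WC 52.2% (48.0 to 56.3%) and WCS 50.4% (46.3 to 54.6%), but the shares for WC ran from 0% to 94.6% between windows. A share over all members thus averages windows that differ widely.

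Over all 94 members, the mutants were present in most windows and the chimera at a low level. WCS counts ran from 0 to 64 with a median of 6, WC counts from 0 to 63 with a median of 7, and chimera counts from 0 to 10 with a median of 3. WCS reached 10 or more sites in 24 of 94 members (background 0.436% of all windows), WC in 32 (background 0.596%) and the chimera in 2 (background 0.0961%). Members averaged 17.3 NeuroD2 sites per window and MyoD-richer dense windows 11.95. In the 87 MyoD-richer dense windows these counts were 27 for WCS, 38 for WC and 11 for the chimera. The 2 mutants had similar counts, which differed by 3 or fewer sites in 84 of 94 members and by at most 6. NeuroD2 had more sites than WC in 84 members, more than WCS in 88 and fewer than WC in 6. The rule sets a minimum for NeuroD2 and none for the mutants, so these counts are a description. The most chimera sites were 10, in the window of chromosome 5 from 14900001, with 66 NeuroD2 sites, and in that of chromosome 15 from 82700001, with 16. In 9 members the chimera had 0 sites, among them the windows of chromosome 4 from 146900001, with 25 NeuroD2 sites, and from 146700001, with 21.

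Relative to NeuroD2, member windows held 57.5 WCS sites per 100 NeuroD2 sites (53.0 to 62.4), 60.2 WC sites (55.6 to 65.2) and 19.4 chimera sites (17.1 to 21.9). In the NeuroD2-dense windows with 6 or more MyoD sites the numbers were 71.5, 81.0 and 52.8, and in all other autosomal windows 72.4, 87.9 and 47.9. The chimera was thus lower relative to NeuroD2 in the members by more than the counting error, and so were both mutants. NeuroD2 counts chose the windows and are also the denominator of these ratios. Low ratios are thus partly set by the rule and are a description. The windows with 6 or more MyoD sites met the same NeuroD2 limit, though with fewer NeuroD2 sites per window. The chimera's list shares its set with the MyoD list, and few MyoD sites chose the members.

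**Figure D4:**
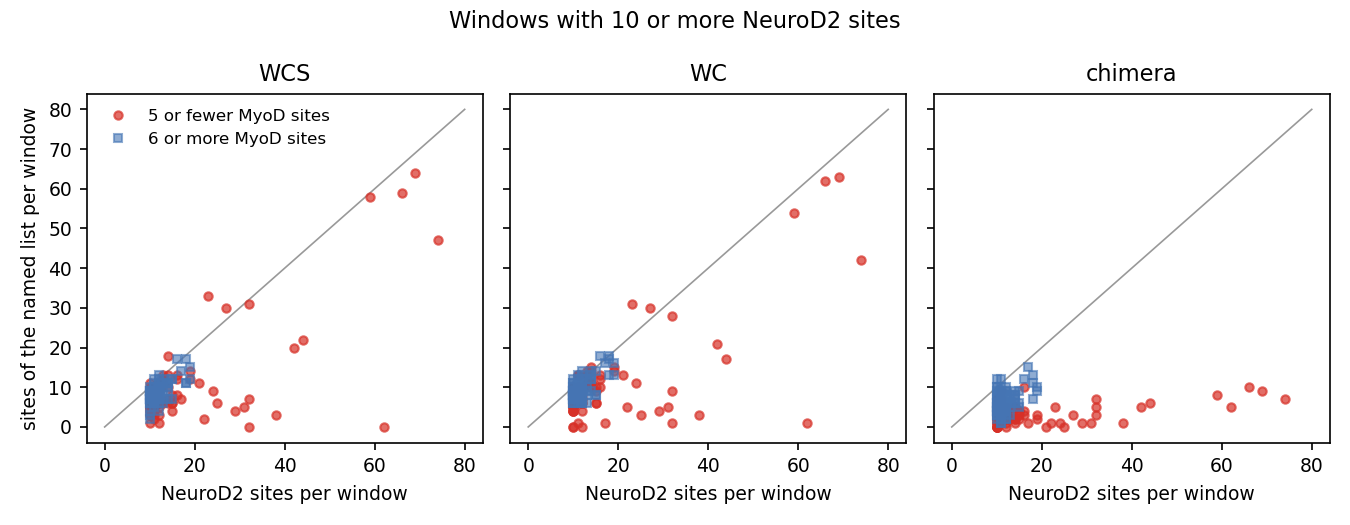
Sites of WCS, WC and the chimera per window (y axis) against NeuroD2 sites per window (x axis) in the 94 members (circles, 5 or fewer MyoD sites) and 87 windows with 6 or more MyoD sites (squares), with the line of equal counts. Of the 5 members with over 50 NeuroD2 sites, 4 hold 42 or more sites of each mutant and the fifth holds 1 or 0, and all hold 10 or fewer chimera sites.

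The lower ratios of the mutants were not seen among sites of high value. With the upper 50% of sites by value kept in each list, members held 83.9 WCS, 86.3 WC and 22.8 chimera sites per 100 NeuroD2 sites. In the windows with 6 or more MyoD sites these numbers were 75.4, 84.3 and 55.9, and in all other windows 70.9, 87.2 and 47.4. In the members WCS was then above both other sets and WC between them, whereas the chimera stayed below both. These numbers include the runs on chromosomes 5 and 8, whose mutant sites ranked high, and were not computed without them. Among member NeuroD2 sites, the 725 sites held by both mutants had a median percentile of 66.9, and the 626 held by no other list one of 29.96.

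Sites held by both mutants made up 44.6% of the member NeuroD2 sites, against 57.3% in the MyoD-richer dense windows, 48.2% in all other windows and a background of 48.3% over all autosomes. Site by site, WCS overlapped 808 of the 1624 member NeuroD2 sites, 49.8% (47.3 to 52.2%), against 62.2% in the MyoD-richer dense windows, 53.2% in all other windows and a background of 53.3% over all autosomes. WC overlapped 861, 53.0% (50.6 to 55.5%), against 67.5%, 58.6% and a background of 58.6%. The chimera overlapped 263, 16.2% (14.4 to 18.1%), against 42.1%, 23.9% and a background of 24.1%. Sites shared by both mutants and held by neither the chimera nor MyoD made up 30.6% of member NeuroD2 sites (28.4 to 32.9%), against 16.7% in the MyoD-richer dense windows, 24.5% in all other windows and 24.5% over all autosomes. Sites in all 5 lists made up 5.91% (4.81 to 7.17%), against 21.5%, 11.3% and a background of 11.4%. The MyoD limit of the rule bears on both of these shares, since it makes MyoD overlap scarce in the members and common in the MyoD-richer windows, so they are a description only. Sites in no other list, on which it also bears, made up 38.5% (36.2 to 41.0%), against 20.9%, 32.8% and a background of 32.7%. Sites with the chimera and neither mutant numbered only 32, 1.97% (1.35 to 2.77%), against a background of 1.66%. MyoD overlapped 169, 10.4%, against a background of 20.8%, a share that the rule itself lowers. Sites of 1 window are not independent, so these intervals are too narrow as a measure of spread between windows.

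**Figure D5:**
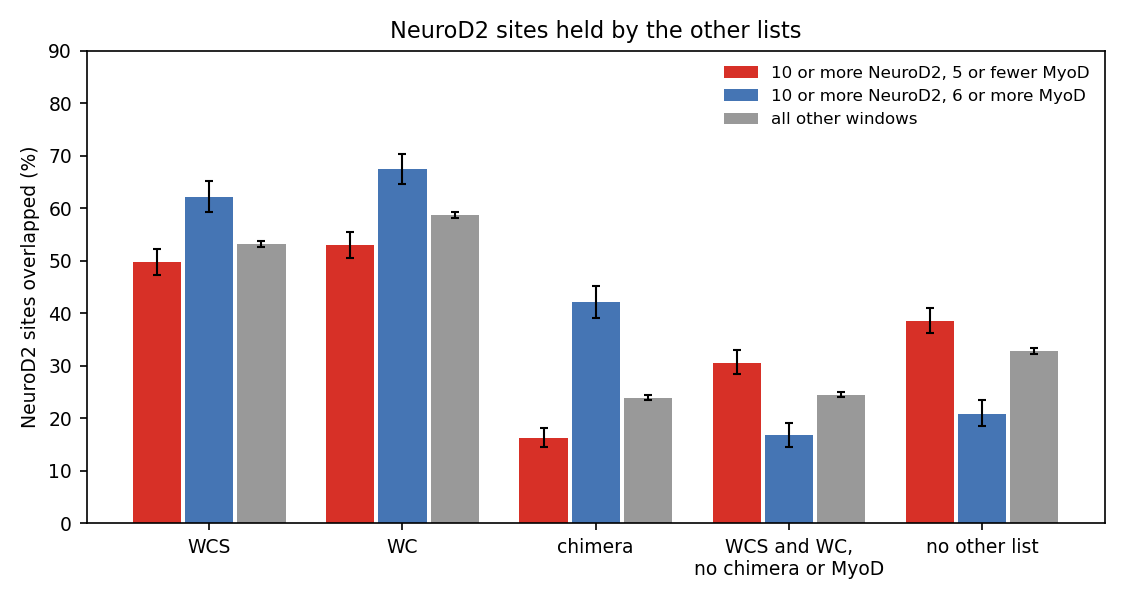
Share of NeuroD2 sites (y axis, %) that overlap the lists named on the x axis, in members (left bars), NeuroD2-dense windows with 6 or more MyoD sites (middle bars) and all other autosomal windows (right bars), with exact 95% intervals for counting error. The chimera overlaps 16.2% in the members, 42.1% in the MyoD-richer dense windows and 23.9% elsewhere, and sites in no other list are at 38.5%, 20.9% and 32.8%.

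The few chimera and MyoD sites in the members mostly coincided with NeuroD2 sites. Of the 315 chimera sites 245 overlapped NeuroD2, 77.8% (72.8 to 82.2%), against 76.1% in the MyoD-richer dense windows and 49.4% in all other windows. Of the 244 MyoD sites 160 did so, 65.6% (59.2 to 71.5%), against 50.3% and 24.6%. The DNA that NeuroD2 sites cover bears on these shares, and it came to 9.52 kb per member window, 4.95 kb per MyoD-richer dense window and 0.680 kb per other window. For the mutants, 74.8% of WCS sites and 74.9% of WC sites in the members overlapped NeuroD2. These shares were 87.6% and 83.8% in the MyoD-richer dense windows, and 73.7% and 66.7% in all other windows. Chimera sites outnumbered MyoD sites in 46 of the members and were fewer in 27. In the MyoD-richer dense windows they outnumbered MyoD sites in 14 of 87. The rule caps MyoD counts in the members and the richer windows have a minimum for them, while chimera counts are free. These counts of windows are thus a description only.

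NeuroD2 sites of the members had a higher median width and lay closer together than elsewhere, and their values were not higher. The rule sets the density, so the spacing is a description. Their median width was 381 bp, against 361 bp in the MyoD-richer dense windows and 338 bp in all other windows. It was 411 bp in members with 30 or more NeuroD2 sites, 385.5 bp with 15 to 29 and 364 bp with 10 to 14. Of the member NeuroD2 sites 28 were wider than 2000 bp, 1.72%, against 0 of 1040 and 9 of 28224. WCS had 23 such sites in the members and WC 29, while the chimera had 2 and MyoD 0. Median spacing was 1674 bp in the members, 4757 bp in the MyoD-richer dense windows and 11262 bp in all other windows. Within the members it was 1176 bp in windows with 30 or more NeuroD2 sites, 1460 bp with 15 to 29 and 4488 bp with 10 to 14, the last close to the MyoD-richer dense windows. NeuroD2 covered 20 kb or more of a window in 14 members and in 0 of the 87 MyoD-richer dense windows. The median percentile of the NeuroD2 value was 45.8 in the members, 55.6 in the MyoD-richer dense windows and 50.1 in all others. The mutants went the other way, at 67.3 for WCS and 67.5 for WC in the members, against 59.5 and 58.6 in the MyoD-richer dense windows and 48.8 and 49.1 in all others. Chimera sites stood at 53.9, 61.5 and 49.6. The runs on chromosomes 5 and 8 weigh on the mutants' medians, since they held 36.2% of member WCS and 33.3% of member WC sites. Median percentiles in these runs were 88.8 and 77.1 for WCS, and 88.3 and 78.9 for WC. In the other runs WCS medians lay between 30.3 and 52.1, and WC medians between 39.0 and 55.9. The run on chromosome 1 from 134400001 was an exception, at 83.4 and 88.8. Medians without the chromosome 5 and 8 runs were not computed. Exact ties were frequent: 26.4% of member NeuroD2 sites of finite value shared it with another NeuroD2 site of their window, against 8.67% and 2.75%. The number of sites per window and their low values move with these ties, and their part was not tested.

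The 3 member sites of highest value were taken from each list. For WCS they were the site on chromosome 17 from 29816899 to 29817687, which WC, the chimera and NeuroD2 also held, and sites on chromosome 9 from 3006602 to 3007052 and from 3003308 to 3003690. All 3 had an infinite value. WC had these places on chromosome 9 too, and then a site on chromosome 12 between 81959116 and 81959731, with a value of 260.2, which lay in all 5 lists. NeuroD2 held the first of those chromosome 9 places and not the second. That place on chromosome 12 was also the highest for the chimera, at 126.4. The next chimera sites lay between 102236455 and 102236925 on chromosome 11 and between 127650694 and 127652265 on chromosome 6, and both were in all 5 lists too. The highest NeuroD2 sites were all on chromosome 9, in the window from 3000001, and no other list held any of these 3. For MyoD the first was on chromosome 17 (83637692 to 83638376, value 282.7), and the others were on chromosome 11 (102255685 to 102256122 and 102236473 to 102236889). All 3 were in every list.

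Dense, MyoD-poor windows could also be picked from the other lists. With the same limits, 33 windows were dense in WCS and 44 in WC, and 24 and 32 of these were members. That is 72.7% of the WCS-dense and 72.7% of the WC-dense windows, and 25.5% and 34.0% of the members. Some windows were dense in a mutant and not in NeuroD2, such as that of chromosome 14 from 44000001, with 15 WCS, 13 WC, 2 chimera, 1 NeuroD2 and 1 MyoD sites, and that from 44100001, with 16, 20, 2, 8 and 2. Only 2 windows were dense in the chimera, both members. The mirror of the rule, 10 or more MyoD and 5 or fewer NeuroD2 sites, picked 34 windows, and none had more than 14 MyoD sites.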

How the data were processed

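ChIP-seq sites came from 5 deposited lists, with the labels giving each transduced group a single one. CASAVA 1.8.2, BWA 0.7.5 and build mm9 are named in the submitters' processing notes. How sites were called, filtered and pooled is not given in the sources used here. The authors' deposited value of a site is used as a score of unnamed scale. It runs from 5.002 to 312.2 with 59 infinite values, and was used to rank sites within a list.

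Sites were placed in windows by their start, and overlap meant at least 1 shared base. Tests were not run, since each group has 1 list. Intervals are exact Clopper-Pearson intervals. The members, the comparison windows and the alternatives were chosen with earlier results of these data known. Windows named are the 10 with most NeuroD2 sites, the longest runs, and those with extreme chimera or mutant counts; sites named are the 3 of highest value per list, ties by width. Other windows and sites were named after their values were seen. Functions were tested on simulated data. Alternatives were another grid, window size, limits, chromosomes, value, width, joining and overlap rules. The tools were matplotlib 3.10.9, scipy 1.17.1, pandas 2.3.3 and numpy 2.4.6 in Python 3.11.15.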

Additional observations from a re-analysis of the deposited data

Results flagged for a closer look

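Chromosome X lay outside the rule, and 7 of its windows of 100 kb held 10 or more NeuroD2 sites, a signal in data that the comparisons did not use. The lists of the chimera and MyoD hold 0 sites on this chromosome, so the MyoD limit cannot be applied there. The window from 121200001 held 14 WCS, 15 WC and 40 NeuroD2 sites, and that from 120700001 held 12, 14 and 21. By contrast, neighbouring windows from 53200001 and 53300001 held 13 and 11 NeuroD2 sites and 0 sites of WCS or WC. The window from 166400001 held 6 WCS, 6 WC and 27 NeuroD2 sites. Dense NeuroD2 windows with and without mutant sites thus both occurred on X.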

How the results depend on the processing

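Of 81 values recomputed under alternatives, 32 stayed within the 95% interval of the value reported, or within 1.5 times of it for the number of windows, and 49 did not. The values reported were 94 windows, 60.2 WC, 57.5 WCS and 19.4 chimera sites per 100 NeuroD2 sites, shares of NeuroD2 sites of 53.0% in WC, 49.8% in WCS and 16.2% in the chimera, and a spacing of 1674 bp. In the same order, 2 or fewer MyoD sites gave 46 windows, 49.2, 48.9, 13.4, 40.5%, 38.9%, 11.0% and 1522.5 bp. Joining sites within 500 bases gave 58 windows, 68.3, 66.1, 24.6, 57.8%, 54.98% and 19.2%, and 3485.5 bp. It kept 56 members, 9 of the 10 with most NeuroD2 sites among them, lost 38 and gained 2. A minimum of 15 NeuroD2 sites gave 29 windows, 54.5 WC and 12.5 chimera sites, shares of 49.6%, 46.7% and 11.3%, and 1263 bp. Windows of 200 kb gave 31 windows, 17.0 chimera sites, a chimera share of 13.7% and 1410 bp. The upper 50% of sites by value in each list gave 86.3, 83.9 and 22.8 sites, shares of 62.8% in WC and 61.1% in WCS, and 3026.5 bp. Without chromosome 1 the shares were 56.4% in WC and 53.3% in WCS, and with the width filter 47.7% and 45.6%. The grid moved by 50 kb gave a chimera share of 18.2%. Chosen after seeing the data, windows with 10 to 14 NeuroD2 sites gave 67.6 WC and 28.3 chimera sites, shares of 57.4% in WC, 53.7% in WCS and 22.6% in the chimera, and 4487.5 bp. Without the 2 longest runs, also chosen afterwards, there were 52.4 WC and 47.9 WCS sites, shares of 43.7% and 40.1%, and 2101 bp. In ratio and share the chimera in the members stayed below its values in the MyoD-richer dense and all other windows in the 4 alternatives where these were also computed. The cause of these changes was not tested. The number of windows is not defined where a filter acts after the rule. No paired analysis was possible because each group has 1 list of sites. Depth is unknown, so an absent site may be one below the authors' threshold.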
